A study of Homo sapiens with 32 samples.

Results

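CITED2, HIF1A and 8 genes known as targets of hypoxia-inducible factor (VEGFA, ADM, BNIP3, NDRG1, EGLN3, PDK1, ANKRD37 and CA9) were followed in RH4, a human cell line from alveolar rhabdomyosarcoma. They were chosen by gene symbol, as CITED2 and HIF1A with well-known hypoxia targets, and make up 10 of the 18980 genes listed in each expression table. RNA-seq of 20 libraries was used from a series of 32 samples, and its ChIP-seq and ChRO-seq samples were not analysed here. The compounds, which the series describes as CBP/p300 inhibitors or degraders, were JQAD, A485, dCBP and IHK-44, given for 2 h or 6 h at a dose of 100 nM or 1 uM. Controls were DMSO and a condition labelled NT, a label that is not spelled out, at the same 2 times. Each of the 20 conditions had 1 library, so a compound's 4 libraries, from both doses and both times, stood in for replicates. In the fit over both doses and times, the p-values measure the spread between libraries of different dose and time. In the test of dose within a compound, only the 2 times stood in for replicates. In the tests of each time and of the interaction, only the 2 doses did so for a compound, and DMSO with NT for the controls.

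Hypoxia-inducible factor (HIF) is a pair of proteins, an oxygen-regulated alpha subunit such as HIF1A and the stable partner ARNT, that binds short DNA motifs beside its target genes. The C-terminal activation domain of HIF1A binds the CH1 domain of the coactivators CBP and p300. CITED2 is itself a HIF target, and its protein competes with HIF1A for that domain, so it is known as a brake on HIF activity. Oxygen controls HIF1A mainly through protein stability, by prolyl hydroxylases such as EGLN3 and the VHL ligase, and RNA levels do not report that step. A485 is known as an inhibitor of the acetyltransferase activity of CBP and p300. No oxygen level was named in the labels used here.

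The 250 bases upstream of the 5′-most listed transcription start are shown for 4 genes, because the genes behaved differently: CITED2 fell strongly, HIF1A fell slightly, BNIP3 did not pass the test against DMSO over both times, and CA9 was almost absent. Sequences run 5′ to 3′ on the gene's own strand and come from RefSeq, build GRCh38.p14, which is the hg38 build that the submitters' processing notes name. They lie at chr6:139374649-139374898 (minus strand), chr14:61695263-61695512 (plus strand), chr10:131981924-131982173 (minus strand) and chr9:35673678-35673927 (plus strand). Capitals mark every match, on either strand, to the HIF core motif ACGTG or to its variant form, which is spelled GCGTG.
CITED2: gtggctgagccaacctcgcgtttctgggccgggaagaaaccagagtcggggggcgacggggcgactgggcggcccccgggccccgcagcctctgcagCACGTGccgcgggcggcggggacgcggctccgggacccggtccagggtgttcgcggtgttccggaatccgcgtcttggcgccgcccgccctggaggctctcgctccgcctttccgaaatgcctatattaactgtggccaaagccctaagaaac
HIF1A: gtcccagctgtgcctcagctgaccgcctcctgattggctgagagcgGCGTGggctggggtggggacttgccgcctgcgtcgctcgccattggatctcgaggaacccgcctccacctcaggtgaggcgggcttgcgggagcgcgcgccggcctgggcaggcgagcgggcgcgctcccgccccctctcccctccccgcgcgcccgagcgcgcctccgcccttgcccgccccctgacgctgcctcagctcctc
BNIP3: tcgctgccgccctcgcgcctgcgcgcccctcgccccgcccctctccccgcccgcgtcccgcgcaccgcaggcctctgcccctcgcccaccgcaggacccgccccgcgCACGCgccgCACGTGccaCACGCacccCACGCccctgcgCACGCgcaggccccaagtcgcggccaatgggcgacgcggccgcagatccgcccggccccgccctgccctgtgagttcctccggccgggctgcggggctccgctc
CA9: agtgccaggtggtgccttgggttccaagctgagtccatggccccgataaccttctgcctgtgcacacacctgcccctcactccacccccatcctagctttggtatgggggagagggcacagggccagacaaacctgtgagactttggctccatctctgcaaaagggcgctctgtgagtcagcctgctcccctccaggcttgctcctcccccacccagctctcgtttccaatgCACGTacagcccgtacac
The CITED2 window held a single CACGTG, a palindrome that matches ACGTG on both strands and so counts as 2 overlapping matches. BNIP3 held such a palindrome and 4 matches to GCGTG, HIF1A held 1 match to GCGTG, and CA9 held 1 match to ACGTG. The core motif was present in 4 of the 8 members with a promoter entry (CITED2, BNIP3 and CA9, and ANKRD37 with 3 matches) and in 20.8% of 15027 promoters of the same length. Either motif was present in 6 of the 8 members and in 50.8% of the same promoters. A match is a description of letters, not a bound site.

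The title of the series concerns CpG islands, so CpG content of the same windows was counted. The CITED2 window held 30 CpG dinucleotides at 70.0% GC, against a median of 17 CpG over the same set of promoters. HIF1A had 29 CpG and BNIP3 had 41, a number above that of 97.8% of promoters. PDK1 and CA9 had 5 each. RefSeq lists 3 starts for CITED2, 2 for HIF1A and 2 for PDK1, and only the 5′-most was used. CpG counts of ADM, EGLN3 and ANKRD37 were 16, 23 and 26.

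Libraries held 13466631 to 16799327 expected counts over the listed genes. Muscle-lineage markers known in this tumour type (MYOD1, MYOG, DES, PAX3, FGFR4 and CHRNA1) were all expressed, with control medians of 39.5 TPM for PAX3 to 384 TPM for MYOD1. The epithelial markers EPCAM and KRT5 were at 0 in every library, PTPRC (blood) had at most 1 count, and the endothelial markers PECAM1 and CDH5 stayed at or under 0.708 CPM. The summed CPM of the 6 muscle markers was 2563 to 2801 in the controls, 2692 to 3084 with JQAD, 1632 to 2547 with A485, 1339 to 2175 with dCBP and 1269 to 2256 with IHK-44. Among these markers, 4 of 6 fell with dCBP and 3 of 6 with IHK-44 (edgeR, Benjamini-Hochberg adjusted p under 0.05). Over all tested genes, 11.8% fell with dCBP and 9.21% with IHK-44. The part of the marker falls in the changes described here was not tested. In bulk RNA, fewer cells of a kind and less RNA per cell cannot be told apart.

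In the 4 control libraries the members spanned a wide range of length-scaled level (TPM, a unit that allows comparison between genes). HIF1A, the oxygen-regulated HIF subunit, was highest at 62.9 to 81.6 TPM. CITED2 followed at 28.7 to 34.9 TPM and BNIP3 at 26.9 to 28.2 TPM. NDRG1 had 6.05 to 8.89 TPM. VEGFA at 3.27 to 4.82 and PDK1 at 3.11 to 4.19 TPM overlapped and were not ordered beyond their spread. EGLN3 had 0.83 to 1.14 TPM. ANKRD37 (0.37 to 0.80 TPM) and ADM (0.05 to 0.56 TPM) overlapped, and CA9 was at or under 0.05 TPM.

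CITED2 RNA was far below the controls in all 8 libraries of dCBP and IHK-44 and in both 1 uM libraries of A485, and it stayed near the controls with JQAD. CITED2 had 71.6 and 68.1 CPM (each library's expected counts brought to one common total over the listed genes) in DMSO at 2 h and 6 h, and 72.7 and 67.6 in NT. With IHK-44 it had 9.58 and 10.2 CPM at 1 uM for 2 h and 6 h, and 11.2 and 10.6 at 100 nM. With dCBP it had 12.6 and 9.51 CPM at 1 uM, and 17 and 12.2 at 100 nM. The highest of these 8 values was far below the lowest control, and at the lowest the 95% Poisson interval, which covers counting error only, was 7.94 to 11.3 CPM.

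**Figure D1:**
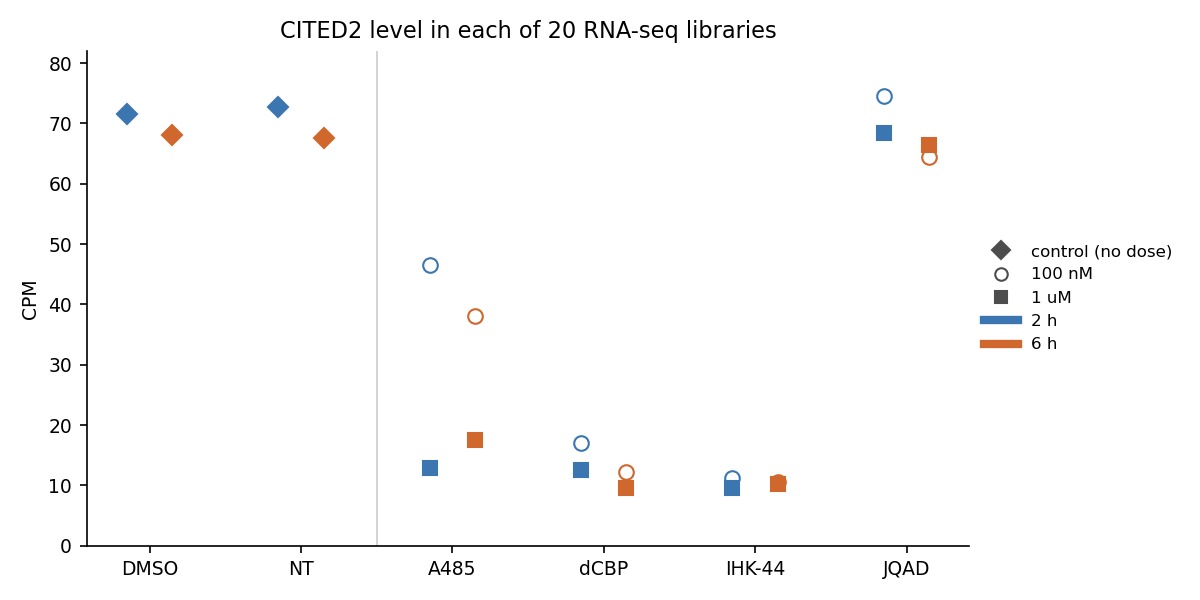
CITED2 level (CPM, vertical axis from 0) in each of the 20 libraries by condition, with 2 h in blue and 6 h in orange, 100 nM as open circles, 1 uM as squares and controls as diamonds. The 4 controls sit between 67.6 and 72.7 CPM, all dCBP and IHK-44 libraries at or under 17 CPM, and the A485 libraries split by dose.

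A485 gave a different picture, in which CITED2 depended on dose. It had 12.9 and 17.6 CPM at 1 uM for 2 h and 6 h, and 46.6 and 38.1 CPM at 100 nM. The 100 nM libraries were thus at 65.1% and 55.9% of the DMSO library of the same time, and the 1 uM libraries at 18.1% and 25.8%. With JQAD, CITED2 had 68.4 and 66.5 CPM at 1 uM and 74.6 and 64.5 CPM at 100 nM, which overlapped the controls. All 4 libraries of A485, of dCBP and of IHK-44 were below all 4 controls.

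In the edgeR fit over all 13260 tested genes, CITED2 fell by 2.56 on the log2 scale with dCBP (SE 0.34, Benjamini-Hochberg adjusted p = 0.00066) and by 2.86 with IHK-44 (SE 0.34, adjusted p = 0.00021), in 4 of 4 libraries each. Ranked from the lowest fitted log2 change, CITED2 stood at place 17 of 13260 with IHK-44 and 37 with dCBP. With A485 the log2 difference was -1.34 (SE 0.33, adjusted p = 0.078), which did not pass, although 4 of 4 libraries were lower. That fit takes the gap between the A485 doses as spread. The adjusted p for A485 ran from 0.0103 to 0.604 over 12 alternative settings and passed in 4 of them, among them DESeq2 (0.0305), both controls pooled (0.0103), and the fits without the 100 nM library of 2 h (-1.67, adjusted p = 0.0321) or of 6 h (-1.58, adjusted p = 0.0256). JQAD gave a difference of -0.03 (95% interval -0.73 to 0.68) and NT one of -0.01 (-0.82 to 0.81).

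The dose effect was tested as 1 uM minus 100 nM within each compound. For CITED2 it was -1.55 with A485 (SE 0.17, edgeR adjusted p = 0.0024), and CITED2 was lower at 1 uM at both times. The dose differences were -0.42 with dCBP (95% interval -0.82 to -0.03), -0.17 with IHK-44 (-0.57 to 0.23) and -0.03 with JQAD (-0.37 to 0.31), and none of these passed the adjustment. CITED2 was the only member called, 1 of 8 tested with A485, where 0.907% of all tested genes were called, and 0 of 8 with the other compounds, where the shares over all genes were 0% with dCBP, 0.109% with IHK-44 and 0% for JQAD. With no adjustment and p under 0.05, the numbers of members that differed by dose were 1 for dCBP, 1 for IHK-44 and 0 for JQAD, and DESeq2 called 0 of 8 for each of the 3. Of all 12895 genes, 142, 305 and 251 had such a p, and DESeq2 called 0%, 0.233% and 0%. The A485 dose effect differed from that of JQAD by -1.52 (adjusted p = 0.042), where 0.0775% of genes were called. It was not shown to differ from dCBP (-1.12, adjusted p = 0.38, 0.00775% of genes called) or from IHK-44 (-1.38, adjusted p = 0.28, 0.0233% called). The 95% intervals, which are not adjusted for the number of genes, were -1.66 to -0.58 and -1.92 to -0.84. These 3 differences of dose effects were added after the data were seen.

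The 4 compounds were set against each other at the same doses and times in 6 pairs. CITED2 was lower with IHK-44 than with A485 by a log2 difference of -1.52 (SE 0.30, edgeR adjusted p = 0.022). It was higher with JQAD than with A485 by 1.31 (adjusted p = 0.018), than with dCBP by 2.53 (adjusted p = 0.00014) and than with IHK-44 by 2.83 (adjusted p = 4.1e-05). The difference of dCBP minus A485 was -1.22 (95% interval -1.84 to -0.60, adjusted p = 0.057) and did not pass. IHK-44 minus dCBP was -0.30, with an interval of -0.95 to 0.34 that leaves room for a difference either way. Adjustment was over all genes within a pair, and no adjustment was made across the 6 pairs.

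HIF1A RNA fell with dCBP and IHK-44, by smaller amounts than CITED2 RNA. HIF1A had 290 and 270 CPM in DMSO at 2 h and 6 h, and 293 and 253 in NT. With dCBP it had 226 and 204 CPM at 1 uM for 2 h and 6 h, and 247 and 149 at 100 nM, all below the lowest control. With IHK-44 it had 255 and 203 CPM at 1 uM and 264 and 218 at 100 nM, in each case below both controls of the same time, although the 2 h values overlapped the 6 h controls.

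HIF1A fell by 0.56 on the log2 scale with dCBP (SE 0.12, edgeR adjusted p = 0.0062) and by 0.38 with IHK-44 (SE 0.12, adjusted p = 0.041), lower than DMSO of the same time in 4 of 4 libraries each. The differences with A485 (-0.23, adjusted p = 0.30) and JQAD (-0.10, adjusted p = 1) did not pass. A485 libraries had 238 to 263 CPM and JQAD libraries 223 to 289 CPM. Between compounds, HIF1A was higher with JQAD than with dCBP (0.46, adjusted p = 0.0033) and than with IHK-44 (0.28, adjusted p = 0.040). Without the DMSO library of 6 h neither fall passed, at -0.47 (adjusted p = 0.16) for dCBP and -0.28 (adjusted p = 0.45) for IHK-44, and the IHK-44 call was also lost in 6 other settings of 12, with adjusted p from 0.0103 to 0.446 over all of them. HIF1A overlaps antisense genes, and strandedness of the counting was not given in the sources used here, so antisense reads could be included.

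NDRG1, a stress-responsive gene widely used as a hypoxia marker, was the one target among the 8 that fell with any compound in the fit over both times. NDRG1 had 24.1 and 20.3 CPM in DMSO at 2 h and 6 h, and 23.9 and 18.4 in NT. With dCBP it had 16.6 and 11.5 CPM at 1 uM, and 18.3 and 14.4 at 100 nM. With IHK-44 it had 20.6 and 13.4 CPM at 1 uM and 17.2 and 9.58 at 100 nM. The 4 dCBP values lay below every control, and the 4 IHK-44 values lay below both controls of the same time, although the highest, at 2 h, was above the 6 h controls.

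With A485, NDRG1 had 19.0 and 12.5 CPM at 1 uM and 19.2 and 11.6 at 100 nM, so the doses gave similar values. JQAD libraries had 25 and 16.1 CPM at 1 uM and 26.0 and 16.6 at 100 nM. NDRG1 fell by 0.67 on the log2 scale with dCBP (SE 0.14, edgeR adjusted p = 0.0062) and by 0.70 with IHK-44 (SE 0.14, adjusted p = 0.0054). The A485 difference of -0.62 (SE 0.14, adjusted p = 0.076) was of similar size and did not pass, and in 12 alternative settings its adjusted p ran from 0.0092 to 0.670. JQAD gave -0.12, and NDRG1 was higher with JQAD than with A485 (0.50, adjusted p = 0.026), dCBP (0.56, adjusted p = 0.0034) and IHK-44 (0.59, adjusted p = 0.0024). Without the DMSO library of 6 h the NDRG1 differences were -0.48 (adjusted p = 0.18) for dCBP and -0.51 (adjusted p = 0.20) for IHK-44, and neither passed.

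**Figure D2:**
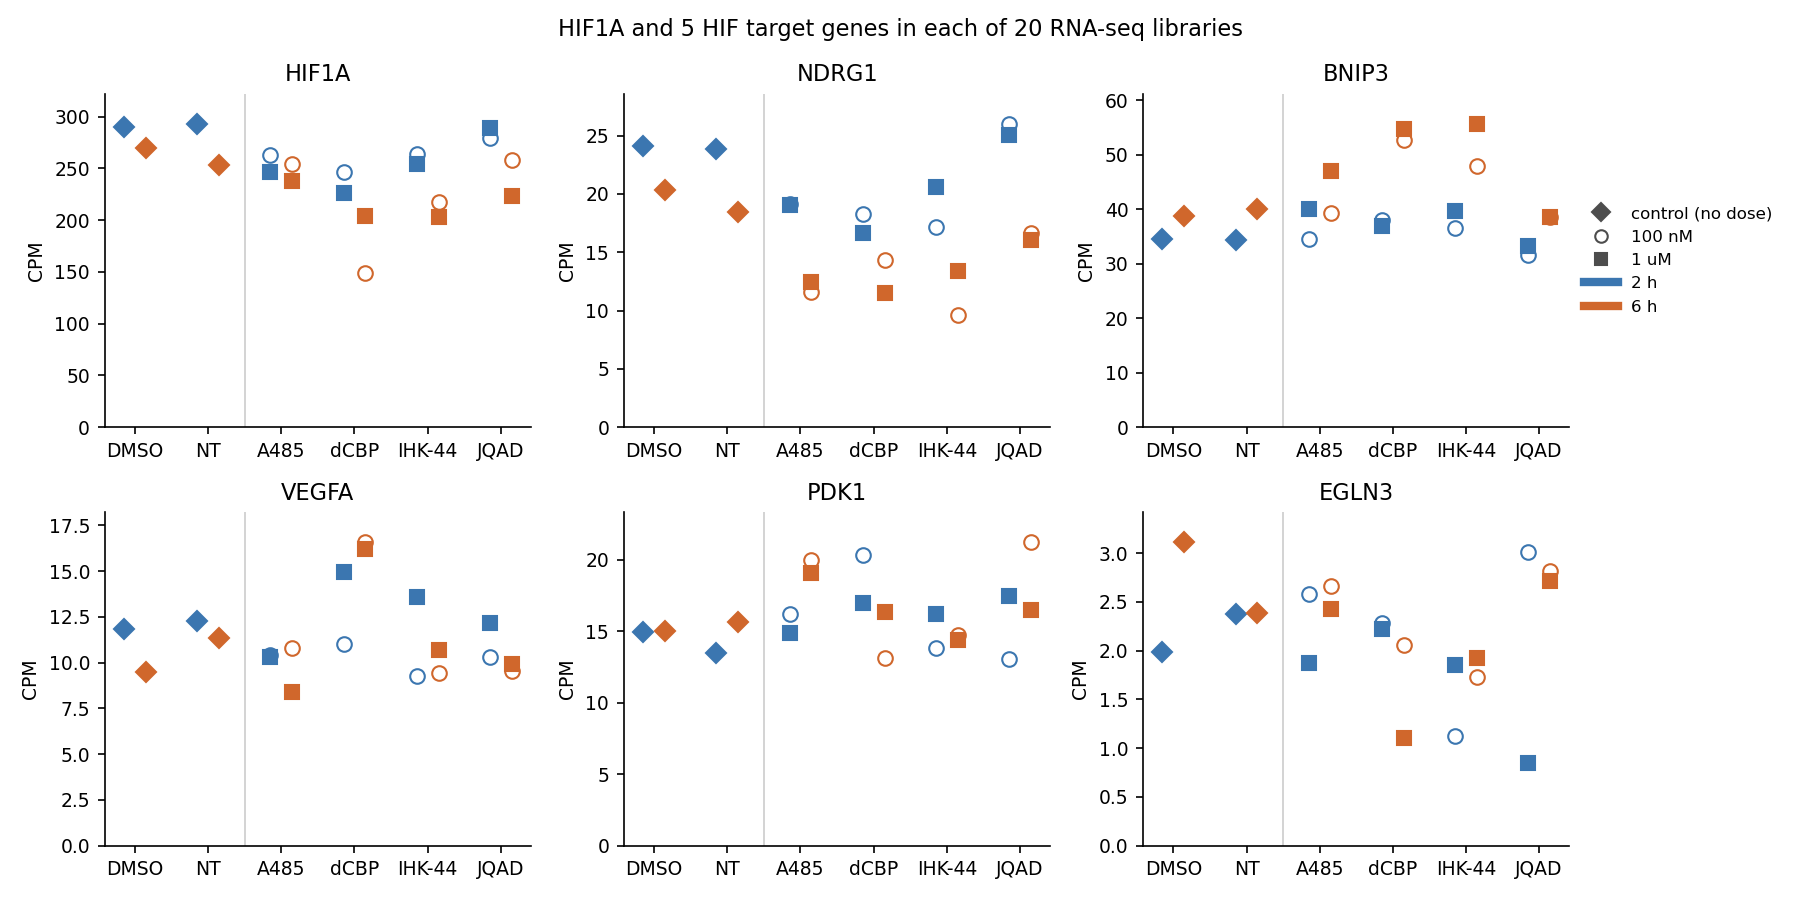
Levels (CPM, vertical axes from 0) of HIF1A, NDRG1, BNIP3, VEGFA, PDK1 and EGLN3 in each of the 20 libraries, with 2 h in blue, 6 h in orange, 100 nM as open circles, 1 uM as squares and controls as diamonds. NDRG1 lies below the controls of the same time with A485, dCBP and IHK-44, while BNIP3 reaches 55.6 CPM at 6 h against 40.1 CPM in the highest control.

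BNIP3, a mitochondrial protein that promotes mitophagy, passed no test against DMSO over both times. It had 34.5 and 38.7 CPM in DMSO at 2 h and 6 h and 34.4 and 40.1 in NT. The 6 h libraries of dCBP had 54.6 (1 uM) and 52.8 CPM (100 nM), and those of IHK-44 had 55.6 and 47.9. At 2 h the dCBP values were 37.0 and 37.9 CPM and the IHK-44 values 39.7 and 36.6, all above both 2 h controls but below the highest 6 h control.

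The fitted BNIP3 differences were 0.19 with dCBP (adjusted p = 0.13), 0.17 with IHK-44 (0.19) and 0.06 with A485. BNIP3 was lower with JQAD than with dCBP (-0.23, edgeR adjusted p = 0.021) and than with IHK-44 (-0.21, adjusted p = 0.035), and these 2 calls were lost in 1 and 3 of 3 alternative settings. Its direction depends on the scale: with TPM, 3 of 4 libraries of dCBP and 3 of 4 of IHK-44 were below DMSO, while with CPM 0 of 4 were. BNIP3 has many pseudogene copies, so the split of its reads is uncertain.

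VEGFA, the vascular growth factor, had 9.46 to 12.3 CPM in the controls. With dCBP it had 14.9 and 16.2 CPM at 1 uM for 2 h and 6 h, and 11 and 16.6 at 100 nM, and 3 of these 4 libraries were above every control. The fitted difference of 0.36 (SE 0.18, adjusted p = 0.14) did not pass, and on the TPM scale 2 of 4 dCBP libraries were below DMSO. IHK-44 libraries had 9.29 to 13.6 CPM, A485 libraries 8.40 to 10.8 and JQAD libraries 9.54 to 12.2, and the fitted differences of -0.10, -0.16 and -0.02 did not pass.

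PDK1, a pyruvate dehydrogenase kinase, had 13.5 to 15.6 CPM in the controls and 13.1 to 21.2 CPM over all libraries. Its fitted differences lay between -0.13 (IHK-44) and 0.19 (JQAD), and none passed. PDK1 overlaps an antisense gene, with the same limit as for HIF1A. EGLN3, a HIF prolyl hydroxylase that is itself a HIF target, had 13 to 47 counts a library. Its 4 IHK-44 libraries, at 1.12 to 1.92 CPM, were all below the lowest control at 1.98 CPM, but the fitted difference of -0.73 (SE 0.38, adjusted p = 0.19) did not pass.

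The other 3 targets were too low to describe change. ANKRD37, a small ankyrin-repeat protein, had 157 counts over the 20 libraries, at most 13 in one, and its widest fitted difference, 1.18 with dCBP, had an interval of -0.26 to 2.62. It also overlaps neighbouring genes. ADM, the peptide hormone adrenomedullin, had 61 counts in all, and 3 libraries were at 0. CA9, a carbonic anhydrase, had 4 counts in all, and 16 libraries were at 0, where a count of 0 allows up to 0.179 to 0.223 CPM (3 counts). ADM and CA9 did not pass the filter on low counts, so 8 of the 10 members were tested.

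**Figure D3:**
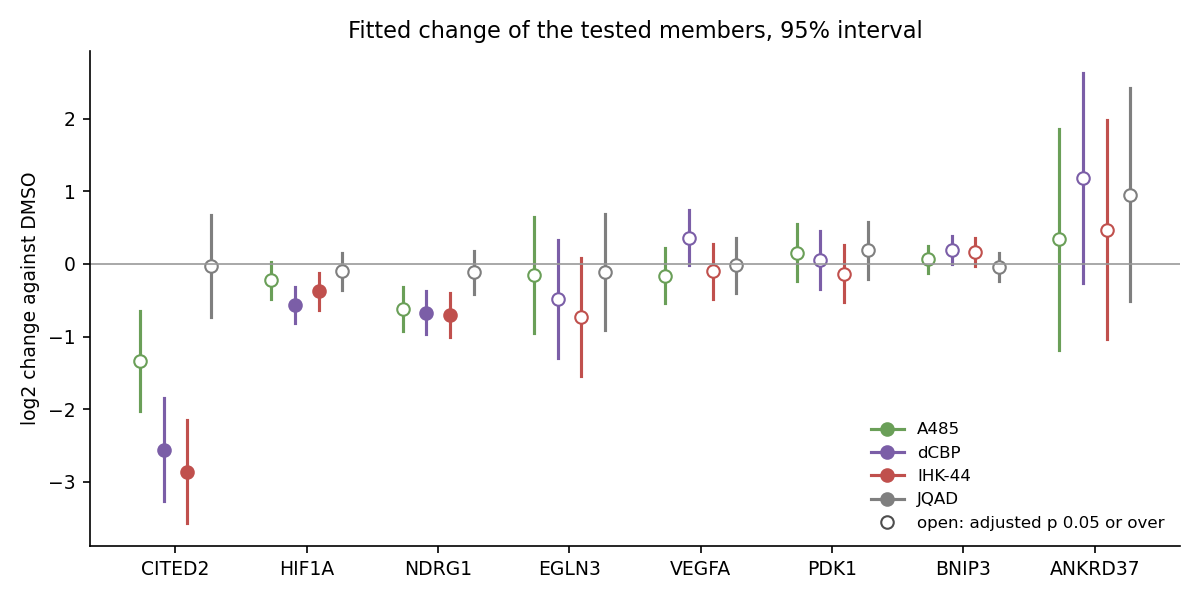
Fitted log2 change against DMSO (vertical axis) of the 8 tested members with each compound, with bars for the 95% interval and filled circles for a Benjamini-Hochberg adjusted p under 0.05. CITED2, HIF1A and NDRG1 are filled for dCBP and IHK-44 only, and the ANKRD37 intervals are the widest.

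Counted together, 3 of 8 tested members fell and 0 rose with dCBP, where 11.8% of all tested genes fell and 11.8% rose. The same 3, CITED2, HIF1A and NDRG1, fell and 0 rose with IHK-44, where 9.21% of genes fell and 7.74% rose. No member passed with A485 (0.271% of genes called), with JQAD (0%) or with NT (0%). At an unadjusted p under 0.05 in edgeR, 2 members differed with A485 and 0 with JQAD or NT, and DESeq2 called 2, 0 and 0. Of all 13260 tested genes, 2533, 143 and 104 had such a p, and DESeq2 called 2.9%, 0% and 0%. The median log2 difference of the 8 members was -0.218 with dCBP and -0.255 with IHK-44, against 0.052 and 0.042 over all tested genes, and -0.156 with A485 against 0.011. These comparisons share the DMSO libraries, so the values stand side by side and are not independent.

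Over the 6 pairs of compounds 11 member differences passed. They were 1 of 8 for IHK-44 minus A485 (0.882% of genes), 2 of 8 for JQAD minus A485 (4.91%), 4 of 8 for JQAD minus dCBP (35.3%) and 4 of 8 for JQAD minus IHK-44 (32.5%). None passed for dCBP minus A485 (0.724%) or IHK-44 minus dCBP (0%), where 3 and 1 members had an unadjusted p under 0.05 and DESeq2 called 3 and 0. Of all 13260 genes, 2840 and 883 had such a p, and DESeq2 called 3.93% and 0.00754%. For JQAD against dCBP or IHK-44 the share of members was not far from that of all genes.

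The ratio of single libraries to DMSO of the same time was computed on log2 values after adding 1 to each CPM, so that low genes show too small a change, for the 7 members with a mean of at least 1 CPM. Of 112 such ratios, 11 were at least 2-fold lower and 0 at least 2-fold higher, against 2.36% lower and 1.93% higher over all genes. CITED2 gave 10 of the 11, with log2 ratios of -1.90 to -2.78, and the other was NDRG1 with 100 nM IHK-44 at 6 h, at -1.01. In NT, 0 of 14 member ratios were past 2-fold, against 0.181% over all genes. The median gene shifted by -0.03 to 0.22 in these libraries with CPM and by -0.45 to 0.42 with TPM. CITED2 and NDRG1 were below DMSO in 4 of 4 libraries of A485, dCBP and IHK-44 on both scales and with the median gene centred at 0, whereas HIF1A with A485 was below in 4 of 4 with CPM and in 1 of 4 with TPM.

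No member had a response that differed between 6 h and 2 h by an interaction test. For CITED2 the difference of responses was -0.06 with A485 (95% interval -1.22 to 1.1), -0.46 with dCBP (-1.70 to 0.79), -0.03 with IHK-44 (-1.28 to 1.22) and -0.06 with JQAD (-1.19 to 1.07). The shares of all genes called were 0.00754% with A485, 9.06% with dCBP, 9.89% with IHK-44 and 0% for JQAD. By edgeR at an unadjusted p under 0.05, 0, 2, 1 and 0 members differed, and DESeq2 called 0 for each. Of all 13260 genes, 1273, 3319, 3249 and 222 had such a p, and DESeq2 called 0.128%, 10.5%, 10.9% and 0%.

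Each time was also tested alone, against DMSO and NT of that time together, a choice made after seeing the data. At 2 h CITED2 had already fallen, by 2.84 with IHK-44 (edgeR adjusted p = 0.0021) and by 2.34 with dCBP (adjusted p = 0.0069), and NDRG1 had fallen by 0.51 with dCBP (adjusted p = 0.0497). These were 1 of 8 members with IHK-44 (4.88% of genes called) and 2 of 8 with dCBP (5.63%), while 0 of 8 passed with A485 (0.0452%) and JQAD (0%), where 2 and 0 had an unadjusted p under 0.05. Of all 13260 genes, 1564 with A485 and 138 with JQAD had such a p. With A485 at 2 h CITED2 gave -1.31 (edgeR adjusted p = 0.18). That fit takes the gap between the doses, 12.9 CPM at 1 uM and 46.6 at 100 nM, as spread. Both values were below DMSO (71.6) and NT (72.7) of that time. The 2 h and 6 h calls were not tested against each other beyond the interaction.

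At 6 h, 5 of 8 members passed with dCBP (45.5% of genes called), 3 for IHK-44 (42.1%) and 2 for A485 (16.6%). None passed for JQAD (0%), for which edgeR gave 0 members, and 284 of 13260 genes, even at an unadjusted p under 0.05. With A485 at 6 h CITED2 fell by 1.36 (adjusted p = 0.028) and NDRG1 by 0.77 (adjusted p = 0.0049). NDRG1 fell by 0.73 with dCBP (adjusted p = 0.00092) and by 0.92 with IHK-44 (adjusted p = 0.00015). HIF1A fell by 0.73 with dCBP (adjusted p = 0.00012) and by 0.48 with IHK-44 (adjusted p = 0.0031). In the same fit, BNIP3 rose by 0.29 (adjusted p = 0.023) and VEGFA by 0.50 (adjusted p = 0.043) with dCBP, against the direction of CITED2, HIF1A and NDRG1. On the TPM scale at 6 h, VEGFA had 4.35 (1 uM) and 3.38 (100 nM) with dCBP, both above DMSO at 3.27, although the second was below NT at 3.77. BNIP3 had 31.8 and 22.8 TPM, above and below DMSO at 26.9.

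The wider HIF pathway was described with 3 lists. The machinery list holds 12 genes for HIF subunits, hydroxylases, VHL, CITED relatives and the coactivators, of which 10 were tested. EPAS1, the HIF-2 alpha subunit, fell by 0.57 with dCBP (edgeR adjusted p = 0.0070) and by 0.45 with IHK-44 (adjusted p = 0.024), with 23.6 to 26.1 CPM in the controls, 17.2 to 19.2 with dCBP and 16.8 to 23.5 with IHK-44. VHL, which marks hydroxylated HIF alpha for destruction, rose by 0.56 with dCBP (adjusted p = 0.0024) and by 0.46 with IHK-44 (adjusted p = 0.0076), from 182 to 205 CPM in the controls to 258 to 352 and 234 to 337 CPM.

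Thus 1 of 10 machinery genes fell and 1 rose with each of dCBP and IHK-44, which is about the share over all tested genes (11.8% lower and 11.8% higher with dCBP, 9.21% and 7.74% with IHK-44). None passed for A485 or JQAD in this fit over both times. With A485, EPAS1 gave -0.39 (edgeR adjusted p = 0.12) and VHL 0.35 (adjusted p = 0.090). The A485 libraries lay outside the control ranges, at 16.5 to 22 CPM for EPAS1 and 221 to 313 CPM for VHL. VHL passed with A485 at 6 h against both controls together (0.41, adjusted p = 0.012). JQAD libraries overlapped the controls, at 22.2 to 26.5 and 196 to 222 CPM. ARNT, the partner of HIF1A, gave -0.19 with dCBP and -0.15 with IHK-44, and EGLN1, the main oxygen-sensing hydroxylase, gave -0.06 and -0.10, and none of these passed. The genes of the coactivators, EP300 and CREBBP, gave 0.21 and 0.20 with dCBP, 0.11 and 0.12 with IHK-44, and 0.40 and 0.32 with A485. None of these passed over both times. At 6 h against both controls together, CREBBP was higher with A485 (0.49, edgeR adjusted p = 0.0058), dCBP (0.30, 0.020) and IHK-44 (0.28, 0.030). EP300 passed there with A485 (0.51, adjusted p = 0.012) but not with dCBP or IHK-44. The shares of all genes called at 6 h were 16.6% with A485, 45.5% with dCBP and 42.1% with IHK-44. RNA levels of EP300 and CREBBP do not report loss of the proteins. CITED1, a relative of CITED2, had 8.24 to 10.9 CPM in the controls. Over both times it gave -0.91 with dCBP (adjusted p = 0.067) and -1.02 with IHK-44 (adjusted p = 0.054). At 6 h against both controls together, CITED1 fell by 1.42 with dCBP (edgeR adjusted p = 0.00098), 1.82 with IHK-44 (0.00015) and 0.91 with A485 (0.035). CITED4 was at 0 counts in every library.

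Of 20 glycolysis genes, all tested, 1 fell and 0 rose with dCBP, and 2 fell and 0 rose with IHK-44, shares near or under those of all tested genes (11.8% lower and 11.8% higher with dCBP, 9.21% and 7.74% with IHK-44). The list medians were -0.136 and -0.132, against 0.052 and 0.042 over all genes. They were LDHA with dCBP (-0.33, edgeR adjusted p = 0.031), and PFKFB3 (-0.44, adjusted p = 0.032) and PKM (-0.38, adjusted p = 0.044) with IHK-44, all named after their values were seen. Of 38 other targets, 34 were tested, and 11 fell and 3 rose with dCBP while 8 fell and 1 rose with IHK-44, with medians of -0.203 and -0.207. In this list the genes that fell were a larger share than over all genes, and those that rose were not. With A485 and JQAD 0 of the 65 tested genes of the 3 lists passed in edgeR (0.271% and 0% of all genes), although 18 and 1 had an unadjusted p under 0.05 and DESeq2 called 4 and 0. Of all 13260 tested genes, 2533 and 143 had such a p, and DESeq2 called 2.9% and 0%. The lists were chosen with earlier results of these data known, and their counts are descriptions.

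**Figure D4:**
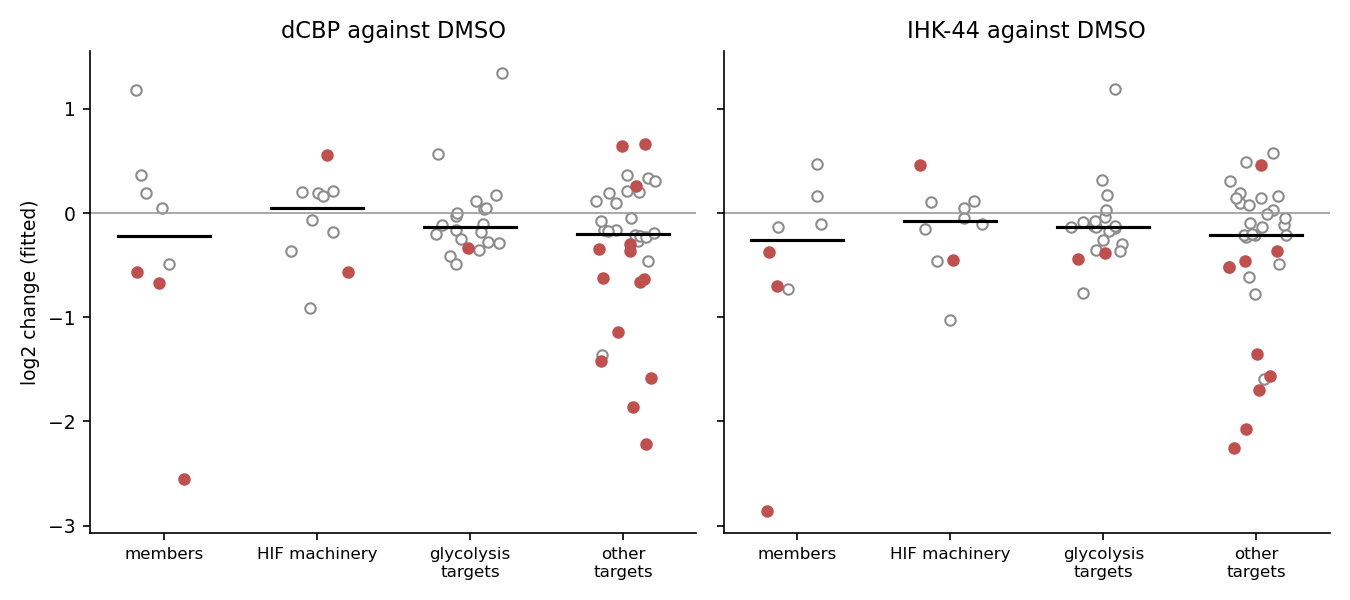
Fitted log2 change against DMSO (vertical axis) of each tested gene of the members and the 3 pathway lists with dCBP (left) and IHK-44 (right), red where the Benjamini-Hochberg adjusted p was under 0.05, with black lines at the list medians and points spread sideways for display. Red points lie on both sides of 0 among other targets, 11 lower and 3 higher with dCBP and 8 lower and 1 higher with IHK-44.

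The other targets that fell included large changes. BHLHE40, a hypoxia-induced transcriptional repressor, fell by 1.86 with dCBP (edgeR adjusted p = 0.0010) and by 2.07 with IHK-44 (adjusted p = 0.00028), from 7.41 to 10.4 CPM in the controls to 1.85 to 3.10 and 1.68 to 2.56 CPM. STC1, a secreted glycoprotein hormone, fell by 2.22 (adjusted p = 0.0057) and 2.26 (adjusted p = 0.0054). STC1 also had a dose effect with A485, of -1.63 (adjusted p = 0.025). All A485 libraries were below every control for BHLHE40 (2.78 to 6 CPM) and for STC1 (1.25 to 5.58, controls 6.15 to 10.4). Neither gene passed with A485 over both times. BHLHE40 kept its calls in 12 of 12 alternative settings for both compounds, whereas the STC1 calls did not pass without the DMSO library of 6 h (adjusted p = 0.098 and 0.096).

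DDIT4, an inhibitor of mTORC1 signalling, fell by 1.70 with IHK-44 (edgeR adjusted p = 0.0022), and RORA, a nuclear receptor, by 1.56 (adjusted p = 0.014). BNIP3L, a mitophagy receptor related to BNIP3, fell by 0.64 with dCBP (adjusted p = 0.0064). None of these 3 genes was lower with 1 compound alone. A485 libraries were below every control for DDIT4 (6.14 to 13.3 CPM, controls 16.7 to 24.1) and BNIP3L (132 to 158, controls 174 to 185). For RORA they overlapped the controls (30.8 to 62.4 against 56.8 to 67.6 CPM). With 1 library left out in turn, the dCBP differences were -1.41 to -0.83 for DDIT4 and -1.92 to -1.34 for RORA. The IHK-44 difference of BNIP3L was then -0.62 to -0.42. Higher genes were ANKZF1 (0.66, adjusted p = 0.023), INSIG2 (0.65, adjusted p = 0.030) and KDM4B (0.26, adjusted p = 0.046) with dCBP, and FAM162A (0.46, adjusted p = 0.048) with IHK-44. INSIG2 restrains sterol synthesis and KDM4B is a histone demethylase. Without the DMSO library of 6 h none of these calls but that of DDIT4 passed, nor did those of EPAS1 and VHL, with adjusted p of 0.12 for VHL and 0.12 for EPAS1 with dCBP and 0.016 for DDIT4 with IHK-44.

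ENO2, a glycolytic enolase singled out after its values were seen, had a response that differed between times. It had 1.26 to 1.74 CPM in the controls. At 6 h it had 8.11 and 9.91 CPM with dCBP at 1 uM and 100 nM, and 9.98 and 7.5 with IHK-44, while at 2 h the 4 values lay between 1.19 and 1.99 CPM. Over both times, A485 libraries had 1.98 to 5.91 CPM, all above the highest control, and JQAD libraries 1.05 to 2.22 CPM. The response at 6 h exceeded that at 2 h by 2.61 with dCBP (edgeR adjusted p = 0.0097) and by 3.05 with IHK-44 (adjusted p = 0.0033). With DMSO or NT alone as control, neither ENO2 difference passed, with adjusted p up to 0.13 for dCBP and 0.067 for IHK-44.

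Genes whose log2(CPM + 1) pattern over the 20 libraries was most like that of CITED2, among 12174 genes, were LRIG3 (Pearson r of 0.987), ERRFI1 (0.986), FLRT3 (0.985), FOXA2 (0.985) and STX11 (0.984). ERRFI1 is known as an inhibitor of growth factor receptor signalling, and FOXA2 is a forkhead transcription factor. ERRFI1 ranged from 57.5 to 236 CPM and FLRT3 from 2.69 to 48.1 CPM. Among members, r with CITED2 was 0.611 for HIF1A, 0.587 for NDRG1, 0.447 for EGLN3, 0.067 for PDK1, -0.279 for VEGFA and -0.663 for BNIP3. These values are descriptions over libraries that share compounds and controls, and the HIF targets did not follow CITED2 as one group.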

How the data were processed

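RNA-seq of 20 RH4 libraries was analysed. The submitters' processing notes name STAR 2.5.3a and RSEM 1.3.3 and the builds hg38 and mm10, with no role stated, and strandedness was not given in the sources used here. Expected counts per gene were deposited by the authors, with 88.2% of values whole, and were rounded here. The CPM values deposited by the authors scale expected counts over the listed coding genes. The deposited TPM values were scaled by the authors over more genes than the listed ones, which held 27.9% to 53.9% of the TPM, so CPM was used within genes and TPM between genes. That share differed by compound. It was 39.3% to 44.5% in the controls, 37.9% to 45.5% with JQAD and 43.0% to 53.9% with A485. With dCBP it was 27.9% to 35.4%, and with IHK-44 31.2% to 34.6%.

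Members, gene lists and tests were chosen with earlier results of these data known. edgeR 4.0.16 (R 4.3.3) with TMM scaling, filterByExpr and the quasi-likelihood test fitted a level for DMSO, NT and each compound plus time (13260 genes, 13 residual degrees of freedom, adjusted p under 0.05 by Benjamini-Hochberg over all genes). Dose was fitted in the 16 treated libraries (12895 genes) and time dependence as an interaction. Alternatives used DESeq2 1.42.0, limma 3.58.1, other controls, scaling and filters, and left out each library. Named beside the members were, for each compound, up to 4 list genes a direction with the smallest adjusted p, 7 fixed pathway genes, and the 5 genes most like CITED2. No condition had its own replicate, and nothing says that libraries came from separate cultures.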

Additional observations from a re-analysis of the deposited data

Results flagged for a closer look

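The dose effect of A485 on CITED2 (1 uM minus 100 nM) differed from that of JQAD by -1.52 on the log2 scale, in a test of the difference itself. The responses of 3 pathway genes differed between 6 h and 2 h in the interaction test. ENO2 differed by 2.61 with dCBP and by 3.05 with IHK-44, CITED1 by -1.59 with IHK-44 (edgeR adjusted p = 0.020) and DDIT4 by 1.31 with IHK-44 (adjusted p = 0.047). CITED1, a relative of CITED2, and DDIT4, an inhibitor of mTORC1 signalling, each lost the call in 2 of 4 alternative settings.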

How the results depend on the processing

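No direction reversed among the fitted results under these alternatives, all of which use the counts or CPM. On TPM, single-library medians changed sign for BNIP3 with dCBP (0.29 to -0.23) and IHK-44 (0.25 to -0.20), VEGFA with dCBP (0.52 to -0.08) and HIF1A with A485 (-0.16 to 0.14), and for 6 other pairs of gene and compound. CITED2 kept its calls with dCBP and IHK-44 in all 12 alternative settings each. For A485, the count of 0 members became 2 with DESeq2, 2 with DMSO and NT pooled and 2 at 6 h against both controls together, and ranged from 0 to 1 when 1 library was left out. For dCBP, 3 became 5 at 6 h against both controls together, and 1 to 4 when 1 library was left out. For IHK-44, 3 became 1 at 2 h against both controls together, and 1 to 3 when 1 library was left out. The fits by time change the time and the control at once. The lowest counts came without the DMSO library of 6 h, which leaves DMSO with 1 library assumed to vary like the other groups. Single ratios past the threshold went from 11 to 20 lower and from 0 to 2 higher at 1.5-fold. The pair count was 10 to 13, the dose count 1 and the time count 0 in all settings. Over all genes, the A485 calls went from 36 to 870 with pooled controls and 385 with DESeq2. They were 0 without the DMSO library of 2 h, without that of 6 h and without the 1 uM library of 6 h, 1 without the 1 uM library of 2 h, and 77 and 257 without the 100 nM libraries of 2 h and 6 h. Those of dCBP went from 3137 to 5383 with pooled controls and 118 to 3883 when 1 library was left out, and those of IHK-44 from 2247 to 4643 and 125 to 2790, lowest without DMSO of 6 h. With limma the dCBP calls were 1158 lower and 2488 higher, against 1567 and 1570, and those of IHK-44 were 993 and 1942, against 1221 and 1026. Depth limits ADM, ANKRD37 and CA9.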
